A study of Mus musculus with 3 samples.

Results

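The constitutive proteasome genes were taken as every gene of the count tables whose symbol begins with Psma to Psmg and a number, without the 3 immunoproteasome subunits Psmb8, Psmb9 and Psmb10. The pattern matched 50 of 32285 genes, and 47 remained. By role they were 14 core particle subunits, 17 regulatory particle subunits, 2 tissue-restricted core subunits, 3 chaperones of the regulatory base, 4 chaperones of core assembly, 5 activators, 1 inhibitor and Psmc3ip, a meiotic recombination factor that shares the symbol pattern but is no proteasome subunit.

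Single cells were dissociated with collagenase II from hypothalami of 8-week-old male mice and sequenced with the 10x Genomics 3′ kit, with 1 library in each of 3 groups. HS mice were exposed to heat, QS mice were sampled in recovery after such exposure, and PF mice served as the control, fed so that their intake equalled that of exposed animals. The sources used here do not say how many mice went into a library, at what time of day they were sampled or how long recovery lasted. With 1 library per group, each difference given here is between libraries, not conditions. No test was possible and no p-value is given. Intervals are 95% intervals that cover counting error only, and HS/PF and QS/PF share the PF library.

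The proteasome is the main protease of the cytosol and nucleus and degrades proteins that carry ubiquitin chains. Its barrel-shaped core particle holds rings of alpha subunits, which gate the entrance, and rings of beta subunits, of which Psmb5, Psmb6 and Psmb7 cut peptide bonds. The regulatory particle binds ubiquitin chains, removes them and unfolds the substrate. Its base contains the ring of Psmc ATPases, and its lid contains the deubiquitinase Psmd14. Interferon induces Psmb8, Psmb9 and Psmb10, which take the place of the cutting subunits in newly made core particles, and it induces Psme1 and Psme2, the subunits of the ring-shaped activator PA28 alpha-beta.

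The libraries held 12510 barcodes in HS, 11720 in QS and 12836 in PF, with 103891747, 93295920 and 100727912 unique molecular identifiers (UMIs, 1 per captured transcript). Pairs of libraries shared 37 to 51 barcode sequences. The cells kept numbered 11630, 10782 and 11858, and the median cell had 6298, 6162 and 6143 UMIs. Cells were classed by marker genes, and the 7 classes that reached 200 cells in each library were compared. In HS, QS and PF they held 3607, 3056 and 3817 endothelial-like cells, 1444, 1761 and 1814 microglia-like cells, and 1412, 1394 and 1033 astrocyte-like cells. Oligodendrocyte-like cells numbered 866, 1237 and 936, ependymal-like cells 1038, 944 and 996, vascular smooth muscle-like cells 460, 339 and 540, and pericyte-like cells 405, 408 and 470. All 7 or 8 markers of each class were detected in it in each library. Ependymal-like cells had 68.3 to 83.8 CPM (UMIs of a gene per 1000000 UMIs) as the median of the astrocyte markers, against 913 to 923 CPM for their own markers, and vascular smooth muscle-like cells had 219 to 231 CPM for pericyte markers against 3003 to 3642 CPM for their own. Pericyte-like cells had 82.8 to 114 CPM for vascular smooth muscle markers, and the next list stood at 28.6 CPM or less in the other 4 classes. Between 21 and 219 cells of a class and library lay just inside the cut of the marker score, and 12 to 104 just outside it. Neuron-like cells numbered 35, 57 and 37 and are not described, although neurons define the hypothalamus.

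Levels are CPM of the UMIs summed over a class in a library. Core and regulatory subunits together made up 4044 CPM of endothelial-like RNA in HS, 4293 CPM in QS and 4468 CPM in PF. Oligodendrocyte-like cells were close to them, with 4189, 4268 and 4242 CPM. Vascular smooth muscle-like cells (3516, 3818 and 3673 CPM), ependymal-like cells (3494, 3784 and 3650.04 CPM) and pericyte-like cells (3360.2, 3687 and 3557 CPM) came next, and their ranges over the libraries overlapped. Microglia-like cells had 2467, 2352 and 2507 CPM. Astrocyte-like cells were lowest, with 2051, 1849.66 and 2096 CPM. The ranges of these last 2 classes overlapped neither each other nor those above. With each cell thinned to 2000 UMIs, astrocyte-like cells stood at 1795 to 2059 CPM and endothelial-like cells at 4021 to 4394 CPM. The mean level was lowest in astrocyte-like cells for 24 of the 31 subunits and in microglia-like cells for 5. It was highest in oligodendrocyte-like cells for 15 and in endothelial-like cells for 11. Psmd14, the lid deubiquitinase, departed from this order. Its mean over the libraries was highest in astrocyte-like cells, with 80.4, 78.9 and 74.1 CPM in HS, QS and PF, although oligodendrocyte-like cells stood above them in QS, with 76.8, 80.1 and 73.3 CPM.

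**Figure D1:**
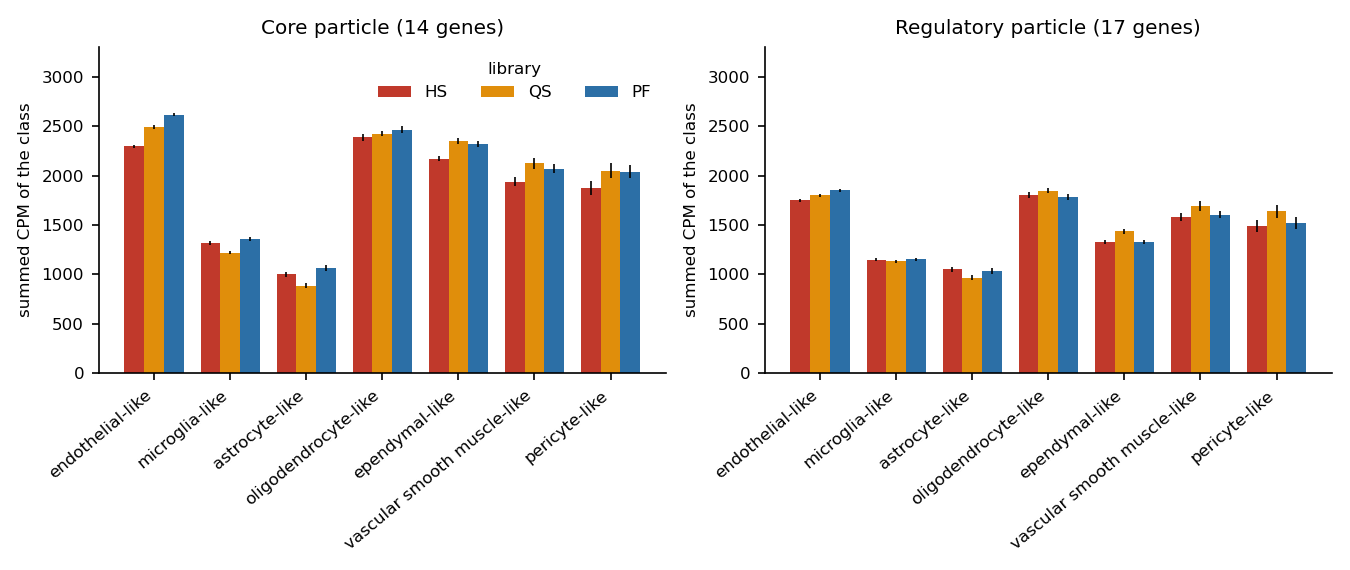
Summed CPM (vertical axis) of the 14 core particle genes and the 17 regulatory particle genes in 7 cell classes, with bars for the HS, QS and PF libraries and exact 95% Poisson intervals as error bars. Core RNA in the HS library is below that in PF in all 7 classes, by the most in endothelial-like cells (2294 against 2616 CPM), while regulatory RNA in HS lies closer to PF.

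A ratio was counted where a gene had at least 100 UMIs in a class over the 2 libraries, and it was called from 1.2-fold up. Of the 47 genes, 36 were measured in all 7 classes in each comparison, 10 in some classes, and Psmb11 in none. In HS/PF, 4 of 298 gene-class pairs (1.34%) were at least 1.2-fold higher, where the share over all genes was 9.11%, and 26 (8.72%) were at least 1.2-fold lower, where it was 10.7%. None of them reached 1.5-fold either way, against 2.47% of pairs over all genes. In QS/PF, 4 of 297 pairs were higher and 26 lower, against 9.01% and 13.5% over all genes. Only 1 pair passed 1.5-fold, against 3.67%. In QS/HS, 11 of 298 pairs were higher and 13 lower, against 11.8% and 14.7%, and 2 pairs passed 1.5-fold, against 4.4%. The proteasome genes as a whole were thus past 1.2-fold no more often than genes at large. The shares over all genes were not matched to the members by UMI count, and counting error passes 1.2-fold more often at low counts. Of the 26 lower pairs in HS/PF, 6 were core subunits, 2 regulatory subunits and 10 activators. The median gene-class pair stood at −0.05 in HS/PF and −0.02 in QS/PF on the log2 scale, against −0.0068 and −0.014 for all genes.

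Core particle RNA was lower in HS than in PF in each of the 7 classes. Summed over 14 subunits it was 2294 CPM in HS endothelial-like cells, against 2616 CPM in PF, a ratio of 0.877 (0.868 to 0.886). Pericyte-like cells had 1871 CPM in HS and 2039.9 CPM in PF (0.917, 0.872 to 0.965). Ependymal-like cells had 2169 CPM in HS and 2319.5 CPM in PF (0.935, 0.920 to 0.951). Of the 98 pairs of a core subunit and a class, 0 were at least 1.2-fold higher and 6 (6.12%) lower, where all genes gave 9.11% and 10.7%, so few single subunits were past that fold. Vascular smooth muscle-like (0.937), astrocyte-like (0.939), oligodendrocyte-like (0.969) and microglia-like cells (0.972) had the same direction. It held in 7 of 7 classes when ratios were centred on the median gene and when mitochondrial, ribosomal protein and haemoglobin genes were left out of the total.

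In QS the core particle did not stand on 1 side of PF. Astrocyte-like cells were lowest, with 886 CPM in QS against 1065 CPM in PF (0.832, 0.798 to 0.867). Microglia-like cells had 1221 CPM in QS against 1355 CPM in PF (0.901, 0.883 to 0.920). Endothelial-like cells had 2493 CPM in QS, between the HS and PF levels, with a QS/PF ratio of 0.953 (0.943 to 0.963). Ependymal-like, vascular smooth muscle-like and pericyte-like cells were slightly above PF, with ratios of 1.01, 1.03 and 1.005, and intervals that included 1. With ratios centred on the median gene, 2 of 7 classes were above PF in place of these 3.

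In HS the regulatory particle lay nearer to PF than the core particle in each of the 7 classes, and in QS it lay farther from PF than the core in 4 of them. In HS its summed ratio to PF ran from 0.945 (0.934 to 0.956) in endothelial-like cells, with 1750 CPM in HS and 1852 CPM in PF, to 1.02 (0.979 to 1.06) in astrocyte-like cells. The interval included 1 in each of the 6 classes other than endothelial-like cells. In QS, ependymal-like cells had 1434 CPM against 1331 CPM in PF (1.08, 1.05 to 1.10), and pericyte-like cells had 1637 CPM against 1517 CPM in PF (1.08, 1.02 to 1.14). Astrocyte-like cells had 964 CPM in QS against 1031 CPM in PF (0.935, 0.897 to 0.974).

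Core UMIs per regulatory UMI in a class do not depend on the class total. The regulatory UMIs leave out Adrm1 and Sem1, regulatory particle genes without a Psm symbol. Over all kept cells Sem1 had 327 CPM in HS, 294 CPM in QS and 320 CPM in PF, more than any counted regulatory subunit. The ratio was not recomputed with these genes. The core to regulatory ratio was chosen for description after the values above had been seen. It was lower than in PF in 7 of 7 classes in HS, by a median of −0.09 on the log2 scale (range −0.12 to −0.04), and in 7 of 7 classes in QS, by a median of −0.09 (range −0.17 to −0.03). The interval excluded 0 in 5 classes in each comparison. Endothelial-like cells had 1.31 core UMIs per regulatory UMI in HS, 1.38 in QS and 1.41 in PF. Astrocyte-like cells had 0.952 in HS, 0.919 in QS and 1.03 in PF. In QS/HS the log2 difference was below 0 in 4 of 7 classes. Fibroblast-like cells, with 288, 62 and 289 cells, had 1.36 in HS, 1.47 in QS and 1.44 in PF, so QS was not below PF there. T or NK-like cells, with 84, 92 and 55 cells, were above PF in both comparisons, with log2 differences of 0.0798 in HS and 0.121 in QS. Border-associated macrophage-like cells, with 146, 83 and 147 cells, were below PF in both (−0.115 and −0.118). The intervals of these smaller classes all included 0.

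**Figure D2:**
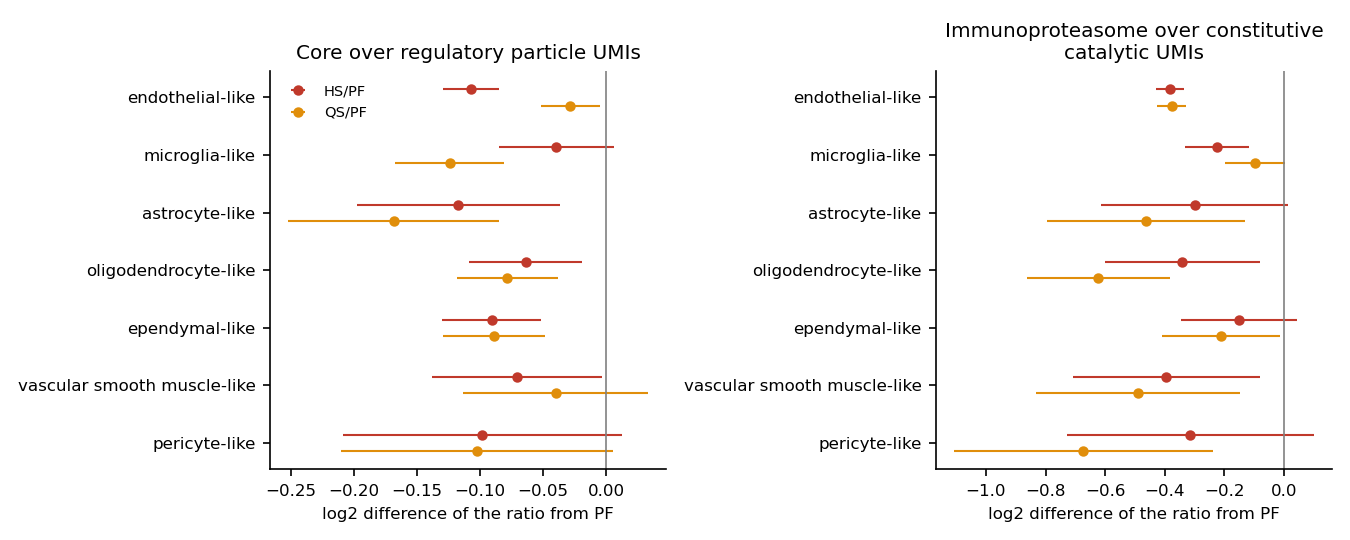
Log2 difference from the PF library (horizontal axes) of core UMIs per regulatory UMI (left) and of immunoproteasome UMIs per constitutive catalytic UMI (right) in 7 cell classes, for HS/PF and QS/PF, with approximate 95% intervals for counting error. All 14 points of each panel lie below 0, and both comparisons share the PF library.

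Transcript length differed between the particles, with a median of 1120.25 bases for core and 1591 bases for regulatory genes (median of GENCODE transcripts of each gene). In HS/PF the median ratio over all other genes at 50 CPM or more was below 0 in 7 of 7 classes for transcripts under 1000 bases (median over classes −0.05) and for 1000 to 2000 bases (−0.03), and above 0 in all 7 for longer ones (0.03). In QS/PF transcripts under 1000 bases were below 0 in 4 of 7 classes, with −0.31 in astrocyte-like, −0.16 in microglia-like, −0.10 in oligodendrocyte-like and −0.01 in ependymal-like cells. Transcripts of 1000 to 2000 bases, the range that holds both particle medians, were below 0 in 3 of 7 classes in QS/PF (median over classes 0.03). Longer ones were below 0 in 4 of 7 (−0.00099). Astrocyte-like and microglia-like cells also had the lowest core particle ratios in QS/PF, −0.27 and −0.15 on the same scale. HS/PF had no such match between classes. Its medians for transcripts under 1000 bases were lowest in astrocyte-like (−0.12) and microglia-like cells (−0.09). Its core particle ratio was lowest in endothelial-like (−0.19) and highest in microglia-like cells (−0.04). The part of transcript length in the core against regulatory difference was not tested.

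**Figure D3:**
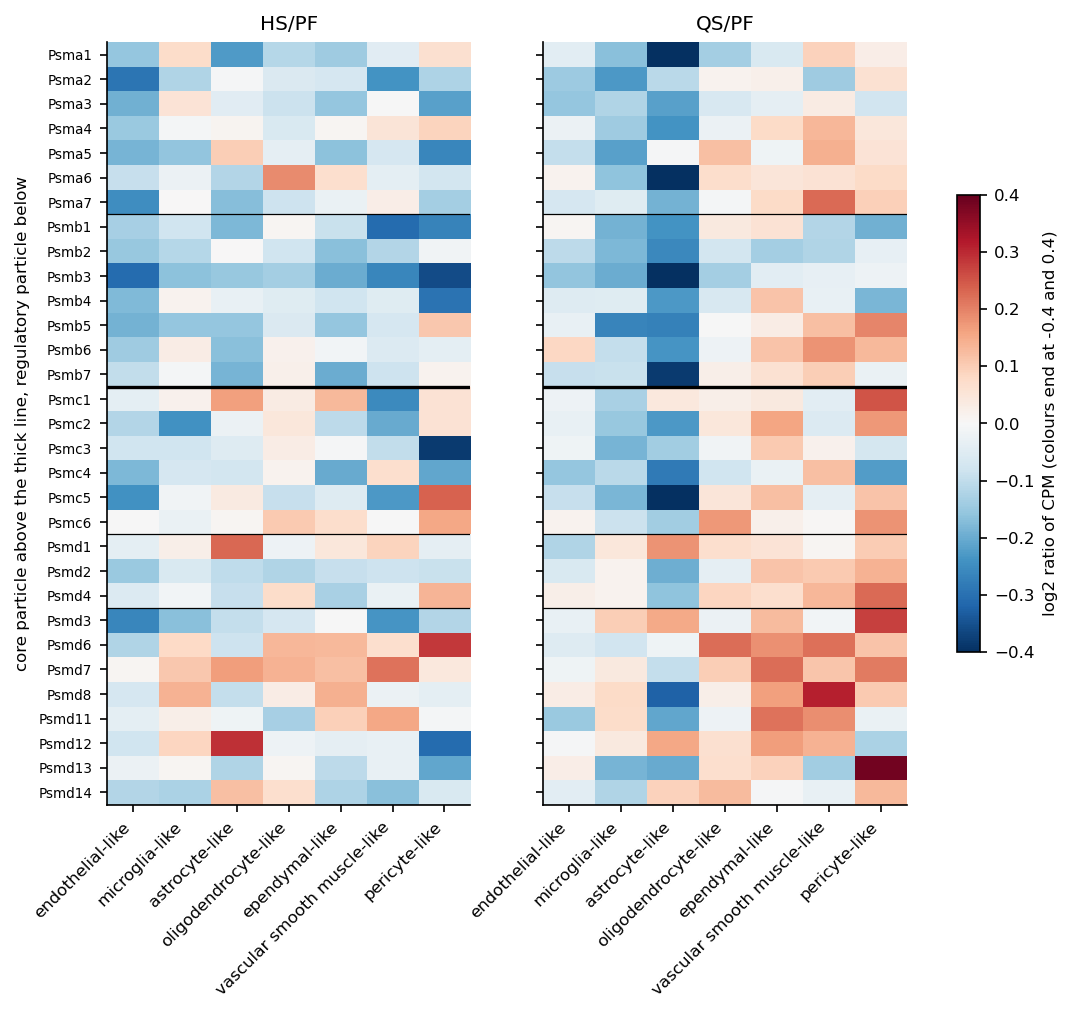
Log2 ratio of CPM (colour, from −0.4 in blue to 0.4 in red) of each of the 31 core and regulatory subunits (rows) in 7 cell classes (columns), HS/PF on the left and QS/PF on the right. Core rows in HS/PF are mostly blue, Psmd7 is above 0 in all 7 classes, and the QS/PF astrocyte-like column is blue for most subunits.

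Among core subunits, 13 of 14 were above PF in at most 2 of 7 classes in HS, against 10 of 17 regulatory subunits. Psmb3, a non-catalytic beta subunit (chromosome 11, 97703399 to 97713500, plus strand, GRCm38), was below PF in all 7 classes in both HS and QS. In endothelial-like cells it had 188 CPM in HS, 208 CPM in QS and 233 CPM in PF, with ratios to PF of 0.808 (0.780 to 0.836) for HS and 0.896 (0.864 to 0.929) for QS. In pericyte-like cells it had 162 CPM in HS, 204 CPM in QS and 207 CPM in PF, an HS/PF ratio of 0.781 (0.659 to 0.925). HS was thus lowest and QS in between in both classes. Psma2, an alpha subunit (chromosome 13, 14613240 to 14674236, plus strand), was below PF in all 7 classes in HS, with 174 CPM in HS, 193 CPM in QS and 213 CPM in PF in endothelial-like cells (HS/PF 0.817, 0.788 to 0.847). With ratios centred on the median gene it was above 0 in 1 of 7 classes. Psmb2, another non-catalytic beta subunit, was below PF in 7 of 7 classes in QS and in 6 of 7 in HS, or 7 of 7 without mitochondrial, ribosomal protein and haemoglobin genes in the total. In ependymal-like cells it had 186 CPM in HS, 190.4 CPM in QS and 209 CPM in PF.

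No catalytic subunit was past 1.2-fold in HS/PF in any class. In QS/PF, Psmb5 was lower in microglia-like (0.832) and astrocyte-like cells (0.829), and Psmb7 in astrocyte-like cells. Psmb5, the chymotrypsin-like subunit, had 122 CPM in HS, 137 CPM in QS and 139.6 CPM in PF in endothelial-like cells, an HS/PF ratio of 0.877 (0.839 to 0.916). Psmb6, the caspase-like subunit, had 144 CPM in HS, 169 CPM in QS and 159 CPM in PF there, so that QS was above PF (1.06, 1.02 to 1.10). Psmb7, the trypsin-like subunit, had 79.4, 79.7 and 85.0 CPM. In astrocyte-like cells Psmb7 had 41.8 CPM in HS, 36.4 CPM in QS and 47.5 CPM in PF, a QS/PF ratio of 0.766. Psma1, an alpha subunit, had the lowest QS/PF ratio of all members there, with 68.8 CPM in HS, 53.0 CPM in QS and 80.5 CPM in PF (0.659, 0.560 to 0.774). The astrocyte-like class held 12 of the 26 lower pairs of QS/PF (30% of its 40 measured members), where 20.6% of all genes in that class were lower, the highest share of the 7 classes. They also included Psma6, Psmb3, Psmb5, Psmc4, Psmc5 and Psmd8.

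Of the regulatory lid, Psmd7, a scaffold partner of Psmd14 (chromosome 8, 107580381 to 107588464, minus strand), was above PF in all 7 classes in HS under each scaling tried, though none of its ratios reached 1.2-fold. It had 152 CPM in HS, 142 CPM in QS and 131 CPM in PF in vascular smooth muscle-like cells (HS/PF 1.16, 1.03 to 1.31) and 169, 166 and 168 CPM in endothelial-like cells (HS/PF 1.01, 0.967 to 1.05). Psmd3, also of the lid, and Psmd2, a scaffold of the base that binds ubiquitin-like domains, were below PF in 7 of 7 classes in HS. Psmd3 had 73.6 CPM in HS, 86.5 CPM in QS and 88.2 CPM in PF in endothelial-like cells (HS/PF 0.834, 0.788 to 0.882), and was higher in QS than in HS in all 7 classes. Psmd2 had 93.9, 99.7 and 104 CPM there (HS/PF 0.902, 0.857 to 0.949). The ubiquitin receptor Psmd4 had 128, 135 and 133 CPM, an HS/PF ratio whose interval included 1 (0.922 to 1.01). The ATPase Psmc4 had 86.5, 88.1 and 98.1 CPM (HS/PF 0.882, 0.837 to 0.930). Psmd13, of the lid, had 67.3 CPM in HS, 101 CPM in QS and 77.6 CPM in PF in pericyte-like cells, the highest QS/PF and QS/HS ratios of any member (1.31, 1.02 to 1.67, and 1.51, 1.16 to 1.97).

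Promoter sequence was read for 39 of the 47 genes (42 windows of 250 bases before a start, RefSeq annotation of GRCm38.p6), and 5 short motifs were searched on both strands. The ETS site CCGGAAG, a core sequence bound by ETS-family factors, was in 9 of 15 regulatory particle windows (60%, 8 of 14 genes) and in 1 of 12 core particle windows (8.33%), against 6.91% of all 32851 promoter windows. Of all 42 member windows 14 had it (33.3%), among them those of Psmc3ip, Psme3, Psme4 and Psmg1, which belong to neither particle. The antioxidant response element core TGACNNNGC was in 16.7% of core and 13.3% of regulatory windows, against 10.2% of all. The CCAAT box (CCAAT) was in 50% and 26.7%, against 33.9% of all, the interferon-stimulated element core GAAANNGAA in 8.33% and 6.67%, against 7.13%, and the heat shock element core GAANNTTC in 8.33% and 0%, against 6.69%. No matches of different motifs overlapped. The ETS sites are singled out because their share differed most, which was seen after the search. Each site in a core or regulatory window is shown in 30 bases of the gene's strand, 5′ to 3′, with the site in capitals. CTTCCGG is the reverse complement of the site, and Psma6 is the core gene. The Psma6 site lies before a later start inside the gene, which begins at 55384222, and no ETS site was found before its first start.
Psma6 (chr12:55398682-55398711, plus strand): agagccaccacCCGGAAGcccgcggaccgc
Psmc1 (chr12:100110163-100110192, plus strand): tggtggatgcaCTTCCGGcggtggcgattt
Psmc2 (chr5:21785180-21785209, plus strand): accagtgagcaCTTCCGGgatggggctcgc
Psmc2, second start (chr5:21786712-21786741, plus strand): gcgcggagctaCTTCCGGtggggaagagaa
Psmc6 (chr14:45329713-45329742, plus strand): aggcgggccagCCGGAAGgggcggagccag
Psmd2 (chr16:20651615-20651644, plus strand): tccgcagggcgCTTCCGGtctggaggacaa
Psmd4 (chr3:95042721-95042750, minus strand): ttacagctgttCCGGAAGctgctgcgaagg
Psmd6 (chr14:14120972-14121001, minus strand): cagagacgcgaCCGGAAGtcagactggcgg
Psmd11 (chr11:80428585-80428614, plus strand): taggaacgcgagggcgggtCTTCCGGgtgt
Psmd12 (chr11:107479498-107479527, plus strand): gatgagcgggcgaCTTCCGGtgcgagtgac
Genes with the site did not share a direction. Psmc1 and Psmd6 were above PF in 5 of 7 classes in HS and Psmd2 in 0 of 7. A match shows only that these letters are present in the window.

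The lowest HS/PF ratios of members in endothelial-like cells belonged to 2 activators, Psme2 and Psme1. The 5 activators were at least 1.2-fold lower in 10 of 29 pairs in HS/PF (34.5%, where all genes gave 10.7%) and in 10 of 28 pairs in QS/PF (35.7%, against 13.5%), and higher in 0 pairs in both. Psme1 and Psme2, the subunits of PA28 alpha-beta, lie 5912 bases apart on chromosome 14. In endothelial-like cells Psme1 had 234 CPM in HS, 258 CPM in QS and 308 CPM in PF, with ratios to PF of 0.760 (0.737 to 0.784) for HS and 0.837 (0.810 to 0.864) for QS. Psme2 had 177, 203 and 249 CPM, with ratios of 0.712 (0.687 to 0.737) and 0.815 (0.786 to 0.845). In microglia-like cells Psme1 had 134, 129 and 166 CPM and Psme2 had 86.3, 87.3 and 103 CPM. Each gene was above PF in 1 of 7 classes in both comparisons, which was ependymal-like cells. There Psme2 had 53.2 CPM in HS, 61.0 CPM in QS and 52.6 CPM in PF, a QS/PF ratio of 1.16 (1.04 to 1.30).

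Of the other activators, Psme4 differed from this pattern in HS, where it was above PF in 4 of 7 classes. In QS it was above PF in 2 of 7. Psme3 was also mostly lower, above PF in 1 of 6 measured classes in HS and in 2 of 5 in QS. Psme4 (PA200, which binds core particles mostly in the nucleus) had 189 CPM in HS, 149.7 CPM in QS and 169 CPM in PF in endothelial-like cells, above PF in HS (1.12, 1.08 to 1.16) and below it in QS (0.885, 0.848 to 0.924). Psme3 (PA28 gamma, a nuclear activator) had 16.8, 14.5 and 21.0 CPM in microglia-like cells, with ratios of 0.798 (0.660 to 0.963) for HS and 0.691 (0.575 to 0.828) for QS. The inhibitor Psmf1 (PI31) had 25.0 CPM in HS, 31.8 CPM in QS and 32.5 CPM in PF in endothelial-like cells, so that HS stood apart (0.769, 0.699 to 0.846) and QS did not (0.980, 0.890 to 1.08). Psme2b, a Psme2-like gene whose reads may be split with Psme2, had 8.66, 7.91 and 9.67 CPM in endothelial-like cells and 10.3, 10.3 and 8.98 CPM in microglia-like cells.

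**Figure D4:**
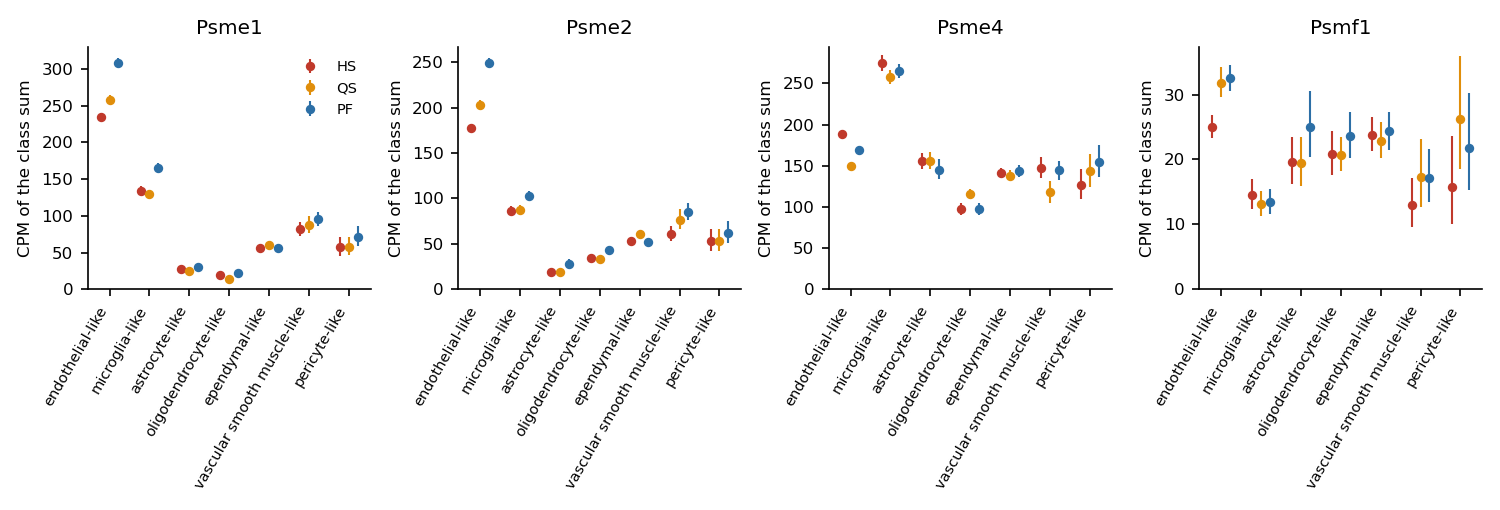
CPM (vertical axes) of Psme1, Psme2, Psme4 and the inhibitor Psmf1 in 7 cell classes in the HS, QS and PF libraries, with exact 95% Poisson intervals. Psme1 and Psme2 are highest in endothelial-like and microglia-like cells and lower there in HS and QS than in PF, while Psme4 in endothelial-like cells is highest in HS.

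The immunoproteasome subunits, which were not among the 47 genes, were lower beside Psme1 and Psme2. In endothelial-like cells Psmb8 had 257 CPM in HS, 290 CPM in QS and 379 CPM in PF, with ratios of 0.677 (0.658 to 0.697) for HS and 0.766 (0.743 to 0.789) for QS. Over the 3 genes, 11 of 16 pairs in HS/PF (68.8%, against 10.7% of all genes) and 12 of 16 in QS/PF (75%, against 13.5%) were at least 1.2-fold lower. Their UMIs made up 62.7% of the UMIs of the 6 catalytic genes in HS endothelial-like cells, 62.8% in QS and 68.7% in PF, and 54.0%, 56.2% and 57.9% in microglia-like cells. In oligodendrocyte-like cells the shares were 6.17%, 5.13% and 7.68%. The ratio of immunoproteasome to constitutive catalytic UMIs was below PF in 7 of 7 classes in both comparisons, by a median of −0.31 in HS and −0.46 in QS on the log2 scale. The intervals excluded 0 in 4 and 6 classes. In oligodendrocyte-like cells it stood at −0.34 (−0.60 to −0.08) in HS and −0.62 (−0.86 to −0.38) in QS. Immunoproteasome UMIs in HS, QS and PF numbered 96, 80 and 133 in pericyte-like cells, against 17627, 15392 and 26372 in endothelial-like cells. The share of free RNA in each class was not measured. Fibroblast-like cells, too few in QS (62 cells) to be compared in full, had shares of 54.0%, 28.8% (22.5% to 35.8%) and 57.5%. Border-associated macrophage-like cells had 58.7%, 59.7% and 60.2%, and T or NK-like cells had 67.9%, 68.4% and 69.7%. In these macrophage-like and T or NK-like cells the intervals of the log2 difference from PF included 0 in HS and in QS.

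The core chaperones summed to less than PF in 7 of 7 classes in QS (median −0.09 on the log2 scale) and in 5 of 7 in HS. The base chaperones Psmd5, Psmd9 and Psmd10 gave 1 lower pair of 18 in HS/PF (5.56%, against 10.7% of all genes), which was Psmd5 in astrocyte-like cells (30.7 CPM in HS, 29.3 CPM in QS and 38.8 CPM in PF, HS/PF 0.790, 0.634 to 0.986). Psmd9 was highest in ependymal-like cells, with 119, 126 and 128 CPM, against 19.0, 20.9 and 21.1 CPM in microglia-like cells. The core chaperones Psmg1 to Psmg4 gave 2 higher and 4 lower pairs of 25 in HS/PF (8% and 16%, against 9.11% and 10.7% of all genes), 0 and 3 of 24 in QS/PF (0% and 12.5%, against 9.01% and 13.5%) and 0 and 4 of 24 in QS/HS (0% and 16.7%, against 11.8% and 14.7%). Psmg1 had 14.8 CPM in HS, 7.32 CPM in QS and 13.03 CPM in PF in astrocyte-like cells, the lowest QS/HS ratio of any member (0.496, 0.334 to 0.725). Psmg4 had 46.1, 45.1 and 54.0 CPM in endothelial-like cells, below PF in both HS (0.854, 0.795 to 0.917) and QS (0.835, 0.773 to 0.902).

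The tissue-restricted members were near 0 in most classes. Psma8, the testis-type relative of Psma7, had 211, 173 and 211 UMIs in endothelial-like cells in HS, QS and PF (6.97, 7.32 and 6.74 CPM), or 2.71, 2.51 and 2.20 UMIs per 100 Psma7 UMIs. Oligodendrocyte-like cells had 1, 4 and 2 Psma8 UMIs, or 0.0490, 0.116 and 0.0917 per 100 Psma7 UMIs, although their Psma7 level was similar. Psmb11, the thymus-type relative of Psmb5, had at most 12 UMIs in any class and library. Psmc3ip had 84.0, 91.6 and 87.6 CPM in ependymal-like cells, and 1.42 to 11.5 CPM in the other classes.

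The shares of pairs past 1.2-fold among genes that work with the proteasome are set against those of all genes, 9.11% higher and 10.7% lower in HS/PF and 9.01% and 13.5% in QS/PF. Of 75 pairs for parts and partners without a Psm symbol, 2 were higher (2.67%) and 5 lower (6.67%) in HS/PF, and 5 (6.67%) and 9 (12%) in QS/PF. Adrm1, a ubiquitin receptor of the regulatory particle, was above PF in 7 of 7 classes in QS, with 34.9 CPM in HS, 42.5 CPM in QS and 31.4 CPM in PF in microglia-like cells (QS/PF 1.35, 1.19 to 1.53). Sem1, also of the regulatory particle, went the other way, above PF in 2 of 7 classes in HS and 1 of 7 in QS. Over all kept cells Sem1 had 327 CPM in HS, 294 CPM in QS and 320 CPM in PF. The regulatory particle sums above include neither gene. The NRF1 pathway, which raises proteasome genes when proteasomes are inhibited, gave 4 higher (10%) and 2 lower (5%) of 40 pairs in HS/PF and 1 (2.5%) and 2 (5%) in QS/PF. Nfe2l1, the gene of NRF1 itself, had 104, 104 and 106 CPM in endothelial-like cells. Shuttles and segregase factors gave 2 higher (3.64%) and 7 lower (12.7%) of 55 pairs in HS/PF and 1 (1.89%) and 6 (11.3%) of 53 in QS/PF.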

How the data were processed

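The files hold UMI counts for each gene and barcode as deposited, which the authors made with Cell Ranger from mouse hypothalamus libraries, 1 per group. Its version was 7.0.1 per the file headers and 5.0.0 per the submitters' processing notes, where Seurat 3.1.2 is also listed. Every barcode in them had at least 500 UMIs. Barcodes under 200 genes or above 20% mitochondrial UMIs were dropped (208, 211 and 194 removed in HS, QS and PF), and 672, 727 and 784 doublets called by Scrublet in Scanpy 1.11.5 were removed. A cell was assigned to the class of its highest marker score when at least 3 markers were detected and no second score exceeded 50% of the first, which left 13.4%, 11.0% and 13.0% unassigned. This was the second of 2 gate rules tried, kept after class sizes, not proteasome values, had been seen.

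UMIs were summed per class and library and scaled to CPM. Levels carry exact Poisson intervals, shares exact Clopper-Pearson intervals, ratios of CPM exact conditional binomial intervals and ratios of ratios Woolf intervals, all at 95% and for counting error only. Depth was 93295920 to 103891747 UMIs per library. Any member could be named. Full values were given for members past 1.2-fold with at least 100 UMIs over the 2 libraries and for a fixed set of catalytic, ATPase, receptor, activator and inhibitor genes, and other members were named after their values were seen. Members and lists were chosen with earlier results of these data known. The core against regulatory ratio, the transcript-length bins, the scaling checks of single genes and the emphasis on the ETS site were chosen after values were seen. The scripts were tested on simulated data. Counts of 3′ UMIs were not scaled by transcript length. Ratios and shares that set genes against each other are therefore of UMIs, and they were compared between libraries and classes. Coordinates are from GENCODE M21 (GRCm38), and promoters from RefSeq GRCm38.p6. Alternatives varied the cell filter, doublets, gate, scaling, free RNA, UMI minimum, weight of cells and depth. Python 3.11.15, NumPy 2.4.6, SciPy 1.17.1, pandas 2.3.3 and matplotlib 3.10.9 were used. Results of the ubiquitin and conjugation list are not reported here.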

Additional observations from a re-analysis of the deposited data

Results flagged for a closer look

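For 3 members the ratio was past 1.2-fold in opposite directions in 2 cell classes under the same comparison, and in each case the difference was not tested. Psmd12, a lid subunit, had an HS/PF ratio of 1.23 (0.996 to 1.51) in astrocyte-like cells, with 44.5 CPM in HS and 36.3 CPM in PF, and of 0.808 (0.615 to 1.06) in pericyte-like cells, with 65.2 CPM in HS and 80.7 CPM in PF. Psmg2, a core assembly chaperone, had an HS/PF ratio of 1.2 (0.985 to 1.47) in astrocyte-like cells, with 47.6 CPM in HS and 39.6 CPM in PF, and of 0.808 (0.618 to 1.05) in vascular smooth muscle-like cells, with 26.7 CPM in HS and 33.1 CPM in PF. All 4 of these intervals included 1. Psmd8, a lid subunit, had a QS/PF ratio of 1.24 (1.09 to 1.42) in vascular smooth muscle-like cells, with 154 CPM in QS and 124 CPM in PF, and of 0.799 (0.667 to 0.959) in astrocyte-like cells, with 46.8 CPM in QS and 58.5 CPM in PF.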

How the results depend on the processing

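The summed list of all members and its pairs past 1.2-fold were recomputed under 10 other settings. The core to regulatory and immunoproteasome ratios, which scaling and the UMI minimum cannot move, were recomputed under the rest. These were the other cell filter, doublets kept, the stricter gate, free RNA subtracted, the mean over cells and thinning. In each of them the core to regulatory ratio was below PF in 7 of 7 classes in HS and in QS. Other results had fewer alternatives or none. Pairs at least 1.2-fold higher in HS/PF numbered 8 with a minimum of 30 UMIs, 12 with none and 16 with cells thinned to 2000 UMIs, where lower pairs numbered 43. Higher pairs in QS/PF numbered 11 with the stricter gate, 8 with 5% free RNA subtracted, 11 with no UMI minimum, 9 as a mean over cells and 20 when thinned. Higher pairs in QS/HS numbered 19 with the stricter gate, 20 with no minimum, 19 as a mean over cells and 34 when thinned, and lower pairs 23 with no minimum. The median log2 ratio of the summed list in QS/PF was 0.00565 in the main setting. It changed sign, to −0.01976, without mitochondrial, ribosomal protein and haemoglobin genes, and its main interval included 0. In QS/HS it was 0.0783 in the main setting, 0.05293 centred on the median gene and 0.05411 when thinned. Thinning left 1 of 7 classes with a core to regulatory ratio below 0 in QS/HS. Among list values whose main interval excluded 0 and pairs past 1.2-fold, direction reversed in 3. These were the HS/PF list in astrocyte-like cells when centred (0.01208), Psme2 in oligodendrocyte-like cells in QS/PF when thinned (0.1315) and the QS/HS list in oligodendrocyte-like cells as a mean over cells (−0.004891). The cause was not tested. Of the 30 pairs past 1.2-fold in HS/PF, 18 of 27 with a value kept that fold under the stricter gate and 16 of 20 when thinned. No paired analysis was possible because each group had 1 library, which also leaves no replicate to leave out. Depth limits single genes in pericyte-like and vascular smooth muscle-like cells most.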
